A study of Mus musculus with 6 samples.

Results

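The 38 genes described here carry the synthesis, sensing, uptake, efflux and storage of cholesterol, and were followed in livers of mice that had been fed an HFHC diet with or without the small molecule DDK. The rule that picks them goes by gene symbol and uses no measured value, and takes 23 genes of the SREBP2 axis and the mevalonate and sterol pathway, and 15 genes of LXR signalling, efflux, lysosomal export and cholesterol ester turnover. All 38 were found among the 22173 gene symbols of the expression table. The set does not hold every gene of the pathway.

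RNA-seq was made from 6 livers of wild-type Mus musculus in 2 groups. One group was 3 mice given DDK, a compound that the series title calls a limonoid, during the last 4 weeks of 16 weeks on the HFHC diet, and the controls were 3 mice given vehicle over the same period. Both groups started the diet at 6 weeks of age, and the labels give neither sex, strain, dose nor what the diet abbreviation stands for. Every animal was on the diet, so no value here shows what the diet itself does to these genes. Expression is given as the authors' FPKM, a fragment rate corrected for how long each gene is and how deep each library is, so levels of different genes can be set side by side.

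Liver cells make cholesterol from acetyl-CoA through mevalonate, the isoprenoids, squalene and lanosterol. When sterol is scarce, the membrane protein SCAP carries the transcription factor SREBP2 out of the endoplasmic reticulum to be cut and activated, and it switches on the enzymes of the pathway. When sterol is plentiful, INSIG proteins hold SCAP back, while oxidised sterols activate the nuclear receptors LXR alpha and LXR beta, which switch on export pumps and a ligase that removes lipoprotein receptors. Cholesterol that is neither exported nor used is stored as esters.

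A part of the cholesterol genes was lower in DDK livers, where all genes leaned lower on the deposited scale, and those that fell came from both sides of this balance. Of the 38 genes, 17 fell and 1 rose at an adjusted p under 0.05 in limma's test over all genes, and 20 did not pass. Over all 10681 genes tested, 40.5% were called, 30.3% as lower and 10.2% as higher, so many genes of these livers moved and the 44.7% of cholesterol genes that fell has to be read against that background. The median log2 fold change was -0.39 over the 38 genes and -0.23 over all genes tested. On the synthesis and SREBP2 side 10 of 23 genes fell and 1 rose (median -0.44), and on the LXR, efflux and ester side 7 of 15 fell and 0 rose (median -0.34). Idi1 and Soat1 passed the filter on low values through the vehicle livers alone, and without them 15 of 36 fell and 1 rose.

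**Figure D1:**
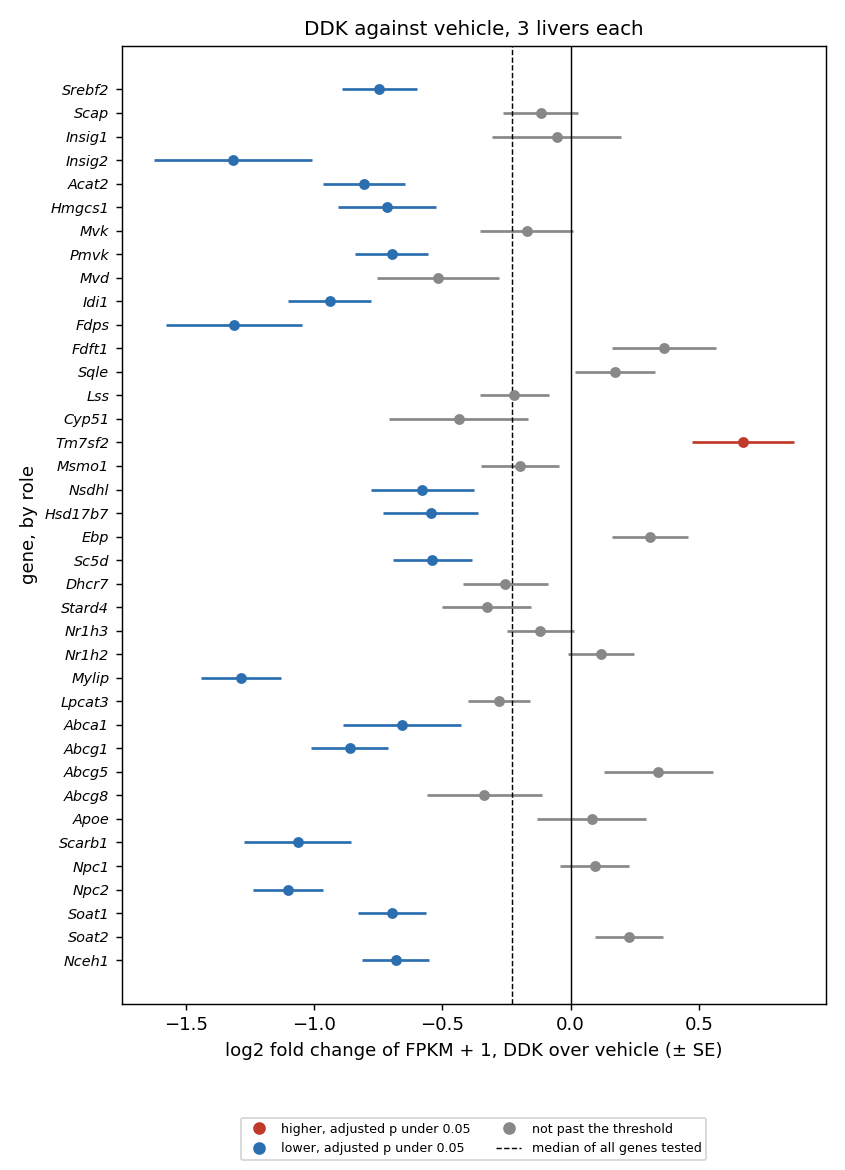
Log2 fold change of FPKM + 1, DDK over vehicle, for the 38 cholesterol genes in order of role (points, bars ± SE from limma, n = 3 livers per group), with the median of all genes tested as a dashed line. The lowest values are those of Insig2 (-1.32), Fdps (-1.31) and Mylip (-1.28), and Tm7sf2 (0.67) is the gene called higher.

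The size of these counts rested on how the libraries were scaled. The median of all genes lay at -0.23 with the FPKM as deposited, at 0.0018 after median-ratio scaling and at -0.45 after rescaling to TPM. Of the 38 genes, 21 fell and 0 rose with TPM, against 11 that fell and 4 that rose once libraries were scaled by median ratios. Over all genes, calls split into 3234 lower and 1093 higher as deposited, 1650 lower and 1963 higher with median ratios, 1743 and 1886 on quantile-normalized values, 1844 and 1723 after length correction, and 4929 and 631 with TPM. Totals behind the libraries were 26576291 to 30237490 fragments in DDK livers and 33963898 to 36105315 in vehicle livers. On the leading principal component (74.997% of variance) the DDK livers lay between -36.4 and -23.6, vehicle liver 1 at 14.1, and vehicle livers 2 and 3 at 36.2 and 40.01. Longer genes stood lower in general. Of the cholesterol genes, the 20 above the median gene length had a median log2 fold change of -0.60 and the 18 others -0.14, against -0.30 and -0.12 for all genes.

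Markers of other liver cells moved with the treatment too. Over all genes tested 30.3% fell and 10.2% rose. Among 15 genes that mark macrophages, Kupffer cells included, 10 fell and 0 rose. The 5 that did not pass were C1qa, Marco, Clec4f, Vsig4 and Timd4. Summed over the 15, FPKM was 208 to 521 in DDK livers and 722 to 1149 in vehicle livers. Of 8 markers of lipid-associated macrophages 6 fell, with sums of 71.8 to 84.3 in DDK livers and 129.5 to 165 in vehicle livers. Of those that fell, 3 (Gpnmb, Itgax and Mmp12) entered the test through the vehicle livers alone, so their calls are not independent of being high there. Of 9 stellate cell markers 8 fell (61.3 to 84.9 in DDK livers and 142 to 183 in vehicle livers), of 8 endothelial markers 4 fell (55.5 to 73.4 in DDK livers and 76.9 to 117 in vehicle livers), and of 4 cholangiocyte markers tested 1 rose (3.42 to 4.89 in DDK livers and 2.904 to 5.654 in vehicle livers over 5 genes). Hepatocyte markers were abundant in all 6 livers, and of the 9 measured, 3 rose, 1 fell and 5 did not pass (median log2 fold change 0.016). Their sums were 47052 to 52779 in DDK livers and 26354 to 33548 in vehicle livers. Most of each sum was Alb, at 33702 to 37838 in DDK livers and 17336 to 21423 in vehicle livers. No marker was at 0 in every liver. In whole liver, fewer cells of a type and less RNA per cell cannot be told apart, and the part these cells play in the changes below was not tested.

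**Figure D2:**
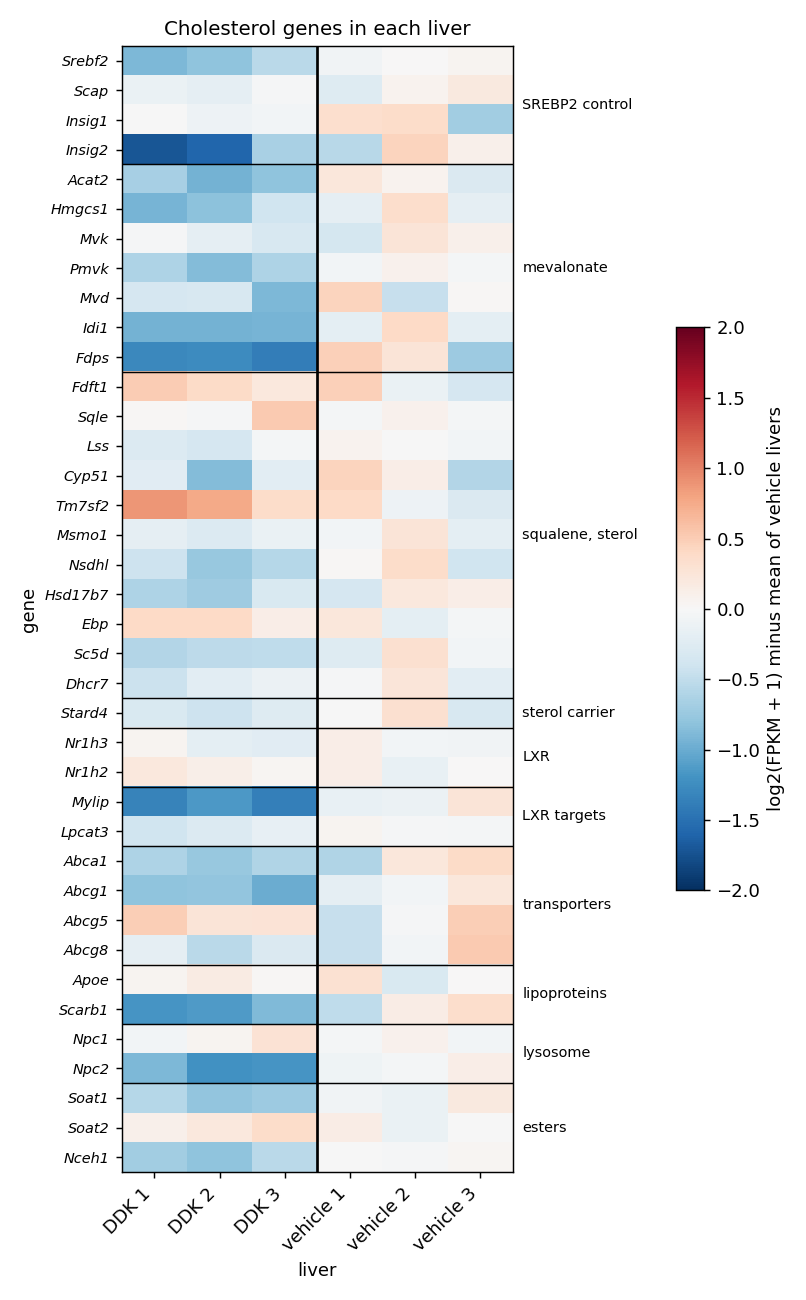
Log2(FPKM + 1) of each cholesterol gene in each liver, as the difference from the mean of the vehicle livers (blue lower, red higher), with the 3 DDK livers in the left columns, the 3 vehicle livers in the right columns and genes grouped by role. Fdps, Mylip and Npc2 are blue in every DDK liver, Tm7sf2 is red there, and vehicle liver 1 is the lowest vehicle liver for Insig2, Abca1, Abcg5, Abcg8 and Scarb1.

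The master regulator of the pathway and one of its brakes were lower in DDK livers. Srebf2 (chromosome 15, 82147181 to 82205379 on GRCm38) encodes SREBP2, and its FPKM was 2.75, 3.001 and 3.79 in DDK livers 1 to 3, against 5.63, 6.04 and 6.27 in vehicle livers 1 to 3. The groups did not overlap, and each DDK liver lay below the lowest vehicle liver. As group means the FPKM was 3.18 ± 0.542 in DDK livers, against 5.98 ± 0.326 in vehicle livers (SD, n = 3 each), and Srebf2 fell (log2 fold change -0.75 ± 0.15, adjusted p = 0.00462).

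Insig2 (chromosome 1, 121304353 to 121332589), which encodes an INSIG protein that anchors SCAP in the endoplasmic reticulum, had an FPKM of 15.05, 16.5 and 32.8 in DDK livers 1 to 3, against 34.9, 70.9 and 55.6 in vehicle livers 1 to 3. DDK liver 3 stood close to vehicle liver 1, but the groups did not overlap. It fell by 1.32 on the log2 scale (SE 0.31, adjusted p = 0.00926), a call that was lost only where low genes were kept in the fit (adjusted p = 0.05199). The related gene Insig1 (chromosome 5, 28071363 to 28078662), itself a well-known SREBP target, had an FPKM of 26.5, 24.7 and 25.4 in DDK livers 1 to 3, against 33.8, 34.4 and 15.9 in vehicle livers 1 to 3. Vehicle liver 3 lay below all DDK livers and the other vehicle livers above them, so the groups overlapped, and no difference was detected (log2 fold change -0.054 ± 0.25, adjusted p = 0.878). Scap, the SREBP escort, ran from 17.4 to 19.6 in DDK livers and 16.5 to 22.9 in vehicle livers (log2 fold change -0.12, adjusted p = 0.544).

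From acetyl-CoA to farnesyl diphosphate, several enzymes were lower in DDK livers. Of 7 early mevalonate and isoprenoid genes 5 fell, 0 rose and 2 did not pass, where 30.3% of all genes fell and 10.2% rose. One of the 5 is Idi1, which entered the test through the vehicle livers alone, and without it 4 of 6 fell. The median log2 fold change of the 7 was -0.72. Summed over the 7 genes, FPKM was 43.9, 41.8 and 47.3 in DDK livers 1 to 3, against 93.96, 99.1 and 66.7 in vehicle livers 1 to 3. Every DDK sum was below the lowest vehicle sum, which was that of vehicle liver 3.

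Fdps (chromosome 3, 89093588 to 89101959), farnesyl diphosphate synthase, makes the isoprenoid from which squalene and other branches start. Its FPKM was 9.04, 9.25 and 8.35 in DDK livers 1 to 3, against 33.005, 28.3 and 13.8 in vehicle livers 1 to 3. It shares 1124 bp of exon with the predicted gene Gm43738 on the same strand, which was not analysed here. The DDK livers lay within a narrow band, while the vehicle livers were spread more than 2-fold and none reached down into it. Fdps fell to 8.88 ± 0.468 in DDK livers, against 25.03 ± 10.005 in vehicle livers (SD, n = 3 each, log2 fold change -1.31 ± 0.26, adjusted p = 0.00516).

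Acat2 (chromosome 17, 12942890 to 12960747) encodes the cytosolic acetoacetyl-CoA thiolase that opens the pathway and is not the sterol acyltransferase Soat2, for which the same abbreviation is sometimes used. Its FPKM was 13.7, 11.2 and 12.4 in DDK livers 1 to 3, against 26.5, 23.4 and 18.1 in vehicle livers 1 to 3, with no overlap. It fell (log2 fold change -0.80 ± 0.16, adjusted p = 0.004901), and the call was lost after median-ratio scaling (adjusted p = 0.0608). Hmgcs1 (chromosome 13, 119690379 to 119708260), the cytosolic HMG-CoA synthase, ran from 14.2 to 21.04 in DDK livers and 24.6 to 35.96 in vehicle livers and fell (log2 fold change -0.72 ± 0.19, adjusted p = 0.01604). The Hmgcs1 call was lost without DDK liver 1 (adjusted p = 0.0638), DDK liver 2 (0.0651) or vehicle liver 2 (0.0529). It was also lost with no filter on low genes (0.0554), median ratios (0.123), quantile-normalized values (0.0646) and length correction (0.112).

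Pmvk, phosphomevalonate kinase, was lower by about as much and with less spread, at 1.77 to 2.304 in DDK livers and 3.87 to 4.38 in vehicle livers (log2 fold change -0.70 ± 0.14, adjusted p = 0.00522). Mvk, the mevalonate kinase that acts just before it, did not pass (log2 fold change -0.17, adjusted p = 0.469), and its groups overlapped at 2.699 to 3.54 in DDK livers and 2.59 to 4.51 in vehicle livers. Mvd, which forms isopentenyl diphosphate, had few fragments, 24 to 58 in DDK livers and 58 to 170 in vehicle livers. It did not pass (log2 fold change -0.52 ± 0.24, adjusted p = 0.106) but did as lower without vehicle liver 2 (adjusted p = 0.0335) and after rescaling to TPM (log2 fold change -0.80, adjusted p = 0.0387).

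Idi1 (chromosome 13, 8885501 to 8892451), the isopentenyl diphosphate isomerase, was nearly undetected in DDK livers. Fragments numbered 0, 0 and 1 in DDK livers 1 to 3, against 70, 150 and 66 in vehicle livers 1 to 3, which is an FPKM of 0, 0 and 0.0115 in DDK livers and 0.676, 1.53 and 0.678 in vehicle livers. Over each group's total fragments the DDK rate was 0.00426 of the vehicle rate (95% exact interval 0.000107 to 0.0239, counting error only). The fitted log2 fold change of -0.94 (adjusted p = 0.00292) understates this, since 1 was added to each FPKM, and with 0.1 added it was -3.26. The gene was low throughout, and its vehicle mean of 0.962 FPKM stood far under the 25.03 FPKM of Fdps.

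Past farnesyl diphosphate the pattern was mixed, with genes going both ways. Of 11 genes from squalene synthase to the last reductions 3 fell, 1 rose and 7 did not pass. These shares, 27.3% lower and 9.1% higher, were close to the 30.3% and 10.2% of all genes tested. The median log2 fold change of -0.22 lay at that of all genes. The summed FPKM of the 11 genes, most of it from Ebp, Tm7sf2 and Sc5d, was 252, 243 and 214 in DDK livers 1 to 3 and 237, 219.98 and 196 in vehicle livers 1 to 3, so these sums overlapped.

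Tm7sf2 (chromosome 19, 6062821 to 6068373), a sterol C14 reductase, was the gene that rose. Its FPKM was 66.3, 60.6 and 46.1 in the DDK livers and 47.04, 32.8 and 28.8 in the vehicle livers (log2 fold change 0.67 ± 0.20, adjusted p = 0.0239). The groups overlapped, DDK liver 3 lying just under vehicle liver 1. The call was lost without DDK liver 1 (adjusted p = 0.0877), DDK liver 2 (0.0855), vehicle liver 2 (0.0679) or vehicle liver 3 (0.09999), without a filter (0.0749) and after rescaling to TPM (0.0552). Exons of Tm7sf2 share 532 bp with Vps51, which stood at 6.595 to 7.87 in DDK livers and 8.798 to 9.45 in vehicle livers and did not pass (log2 fold change -0.35).

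The genes that fell were Sc5d, Nsdhl and Hsd17b7. Sc5d, the C5 desaturase, ran from 35.9 to 37.9 in DDK livers and 45.3 to 67.6 in vehicle livers (log2 fold change -0.54 ± 0.15, adjusted p = 0.0212). Nsdhl, which works in removal of the C4 methyl groups, ran from 3.003 to 4.08 in DDK livers and 4.15 to 7.73 in vehicle livers (log2 fold change -0.58 ± 0.20, adjusted p = 0.0429), and Hsd17b7, the ketoreductase of the same step, from 2.12 to 3.11 in DDK livers and 3.02 to 4.87 in vehicle livers (log2 fold change -0.54 ± 0.18, adjusted p = 0.0399), where the groups overlapped. These 3 calls were weak. Sc5d lost it without DDK liver 1 (adjusted p = 0.0705), DDK liver 2 (0.0678), vehicle liver 2 (0.0708) or vehicle liver 3 (0.0554). Hsd17b7 lost it without the same 4 livers (0.113, 0.146, 0.131 and 0.129), and Nsdhl without any of DDK livers 1 to 3 (0.0634, 0.152 and 0.0815) or vehicle livers 1 or 2 (0.0652 and 0.1501). All 3 were also lost with no filter, median ratios, quantile-normalized values and length correction, at adjusted p values of 0.0511, 0.272, 0.0664 and 0.222 for Sc5d. In the same order they were 0.0999, 0.1499, 0.214 and 0.233 for Hsd17b7, and 0.106, 0.235, 0.325 and 0.159 for Nsdhl, which voom lost too (0.0577). Of 17 alternatives, 9 kept the call of Sc5d, 9 that of Hsd17b7 and 7 that of Nsdhl.

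The other 7 genes of this stretch did not pass. Fdft1, squalene synthase, stood at 9.298 to 11.6 in DDK livers and 6.04 to 11.3 in vehicle livers (log2 fold change 0.36, adjusted p = 0.173) and passed as higher without vehicle liver 1 (adjusted p = 0.00872). Fdft1 exons overlap those of Ctsb on the other strand by 774 bp, the kit did not mark strand, and Ctsb was itself lower (-0.73, adjusted p = 0.00362). Sqle, squalene epoxidase and a rate-limiting step, was scarce in both groups, with 41 to 105 fragments in DDK livers and 50 to 63 in vehicle livers and a log2 fold change of 0.17 (adjusted p = 0.389). DDK liver 3, at 1.26 FPKM, stood about 2-fold above the other DDK livers for this gene. Cyp51, the lanosterol demethylase, whose exons overlap Akap9 on the other strand by 166 bp, ran from 2.33 to 4.29 in DDK livers and 3.08 to 7.29 in vehicle livers (-0.44, adjusted p = 0.215). Ebp, the sterol isomerase and the most abundant gene of the group, ran from 95.5 to 116 in DDK livers and 76.2 to 102 in vehicle livers (0.31, adjusted p = 0.115), and it passed as higher without vehicle liver 1 (0.0254), after median-ratio scaling (0.0323) and with length correction (0.0448). Log2 fold changes were -0.22 for Lss, lanosterol synthase, -0.20 for Msmo1, the C4 methyl oxidase, and -0.25 for Dhcr7, a last-step reductase, with adjusted p from 0.212 to 0.313. Stard4, which carries sterol between membranes and is an SREBP2 target, had a log2 fold change of -0.33 (adjusted p = 0.152) and passed as lower after rescaling to TPM (0.0352).

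**Figure D3:**
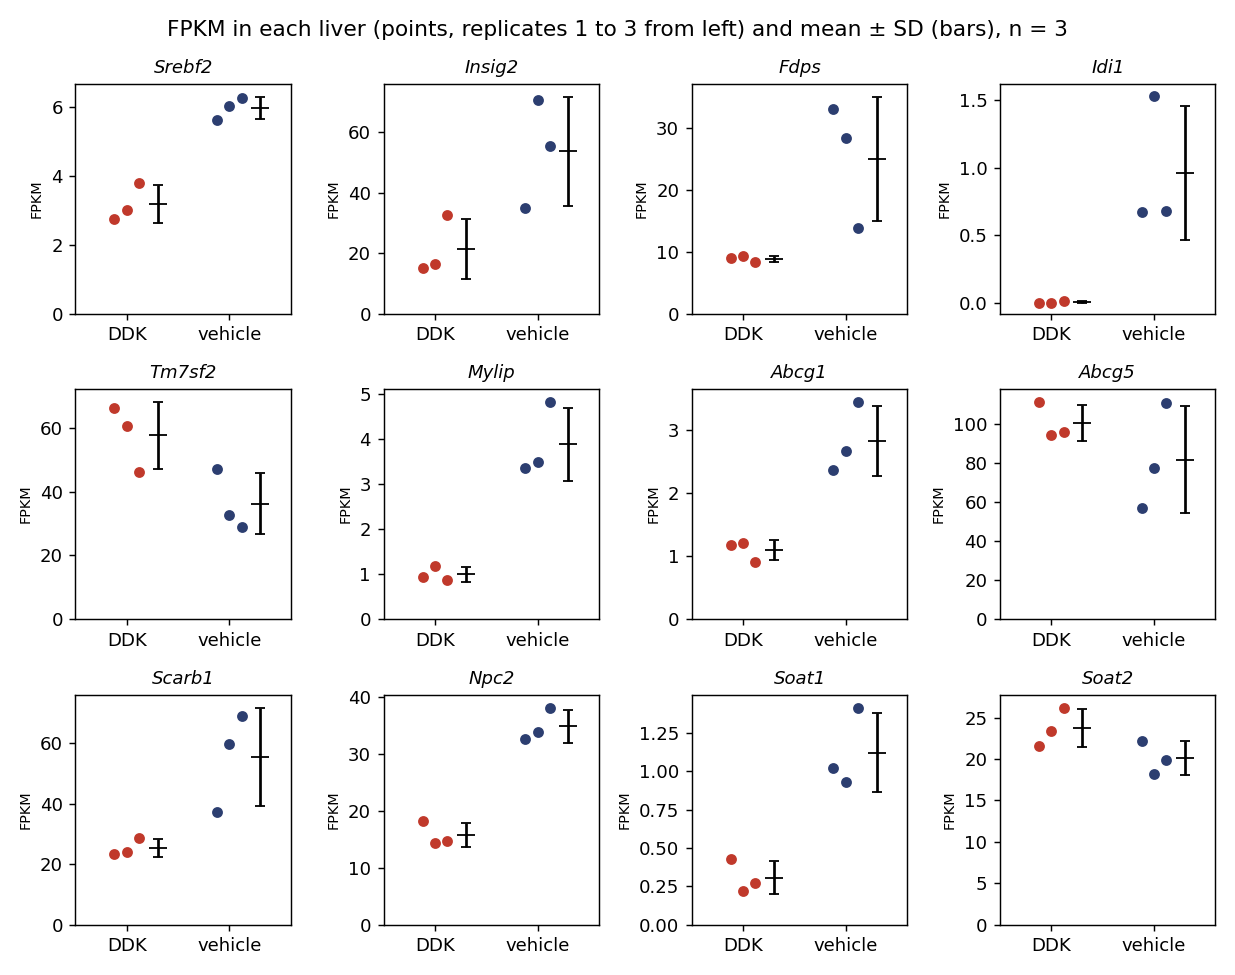
FPKM of 12 cholesterol genes in each liver (points, replicates 1 to 3 from left to right) with mean ± SD (bars, n = 3), DDK left of vehicle in each panel and every axis from 0 or just under it. Srebf2, Idi1, Mylip, Abcg1, Npc2 and Soat1 show a clear gap between the groups, Abcg5 and Soat2 show overlapping groups, and vehicle livers spread widely for Fdps, Insig2 and Scarb1.

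Promoter sequence was looked at because SREBP2 acts together with the factor NF-Y at many of these genes. RefSeq promoters on GRCm38.p6, from 250 bases before to 50 after a gene's start, were matched by symbol for 30 of the 38 genes. The NF-Y box CCAAT, searched on both strands, was in 17 of 19 synthesis-side genes (89.5%) and 7 of 11 efflux-side genes (63.6%), against 41.1% of all 27025 genes with a promoter. A gene was counted if any of its promoters held the letters. The 27025 take in many genes beyond the 10681 tested, so this background is not matched to the members. The sterol regulatory element core TCACNCCAC was in 1 of the 19, Hmgcs1, in 0 of the 11, and in 1.44% of all genes. The LXR element, 2 copies of GGTCA with 5 free bases between them, was in 0 of the 30 and in 0.0851% of all. These are matches of letters within a short window, and say nothing on what binds there.

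The stretches below lie before a start of 6 synthesis-side genes and outside annotated exons, and are shown because they carry these boxes. Insig2 has further RefSeq promoters in which no box was found, and which start these livers use was not tested. Of the 6 genes shown 5 fell, and Mvk, with 4 boxes in its stretch, did not pass. On the whole synthesis side 10 of 23 genes fell, and of all genes tested 30.3%. The 6 were chosen from the 17 synthesis-side genes with a box, so their count is not a result about boxes. Of those not shown, Idi1, Pmvk and Sc5d fell and Tm7sf2 rose. Cyp51, Dhcr7, Ebp, Insig1, Lss, Msmo1 and Mvd did not pass. Capitals mark CCAAT or its reverse complement ATTGG and, in Hmgcs1, the sterol regulatory element core as well. Each stretch is given 5′ to 3′ on the strand of its gene.
Hmgcs1 (chr13:119690131-119690350, plus strand): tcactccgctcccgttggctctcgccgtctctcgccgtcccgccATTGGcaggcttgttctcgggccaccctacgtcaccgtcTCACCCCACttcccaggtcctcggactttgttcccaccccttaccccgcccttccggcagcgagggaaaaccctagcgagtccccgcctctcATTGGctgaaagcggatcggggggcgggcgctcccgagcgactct
Mvk (chr5:114444139-114444268, plus strand): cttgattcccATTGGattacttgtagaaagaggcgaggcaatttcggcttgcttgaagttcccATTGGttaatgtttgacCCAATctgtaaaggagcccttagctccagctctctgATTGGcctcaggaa
Nsdhl (chrX:72918412-72918520, plus strand): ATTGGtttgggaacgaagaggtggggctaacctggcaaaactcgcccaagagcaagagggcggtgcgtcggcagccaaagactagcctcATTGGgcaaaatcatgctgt
Hsd17b7 (chr1:169969242-169969325, minus strand): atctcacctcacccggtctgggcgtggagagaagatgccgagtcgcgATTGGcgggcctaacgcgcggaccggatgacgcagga
Srebf2 (chr15:82147119-82147180, plus strand): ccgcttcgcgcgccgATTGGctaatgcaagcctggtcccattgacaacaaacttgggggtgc
Insig2 (chr1:121332590-121332739, minus strand): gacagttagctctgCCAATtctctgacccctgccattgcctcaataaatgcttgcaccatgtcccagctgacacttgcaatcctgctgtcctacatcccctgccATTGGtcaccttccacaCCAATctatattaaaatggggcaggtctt
In Hmgcs1 the core TCACCCCAC begins at position -137 from the start. Boxes were found in the promoters of genes that fell, of Tm7sf2, which rose, and of genes that did not pass, so the presence of a box did not separate them.

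On the LXR side, the receptors themselves were not detectably different while their ligase target was much lower. Nr1h3 (chromosome 2, 91184061 to 91202834), which encodes LXR alpha, the main liver form, had an FPKM of 61.3, 51.7 and 50.5 in the DDK livers and 64.5, 56.7 and 56.2 in the vehicle livers (log2 fold change -0.12 ± 0.13, adjusted p = 0.484). Nr1h2 (chromosome 7, 44549616 to 44553951), LXR beta, had an FPKM of 23.4, 21.7 and 20.6 in the DDK livers and 22.03, 18.1 and 20.3 in the vehicle livers (log2 fold change 0.12 ± 0.13, adjusted p = 0.479). Both sets of livers overlapped, and Nr1h3 passed as lower only after rescaling to TPM (adjusted p = 0.0378).

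Mylip (chromosome 13, 45389742 to 45412022) encodes IDOL, an LXR-induced ubiquitin ligase that sends lipoprotein receptors to the lysosome. Its FPKM was 0.926, 1.18 and 0.8697 in DDK livers 1 to 3, against 3.36, 3.48 and 4.81 in vehicle livers 1 to 3. Even the highest DDK liver lay far below the lowest vehicle liver. Mylip fell (log2 fold change -1.28 ± 0.16, adjusted p = 0.000779), and over the 17 alternative settings its log2 fold change ran from -1.96 to -1.02, with an adjusted p of at most 0.01298. Lpcat3, an LXR target that builds polyunsaturated phospholipids, ran from 40.3 to 47.9 in DDK livers and 52.3 to 55.6 in vehicle livers. Its groups did not overlap, but it did not pass (log2 fold change -0.28 ± 0.12, adjusted p = 0.0874), except as lower after rescaling to TPM (log2 fold change -0.52, adjusted p = 0.00984). Of its exons, 334 bp overlap Emg1 on the other strand, which rose (0.69).

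The 4 sterol pumps parted into a pair that fell and a pair that did not pass. Abcg1 (chromosome 17, 31057675 to 31117988), which moves sterol to HDL and is strong in macrophages, had an FPKM of 1.17, 1.202 and 0.915 in DDK livers 1 to 3, against 2.36, 2.67 and 3.44 in vehicle livers 1 to 3. No DDK liver came near the vehicle livers, and Abcg1 fell (log2 fold change -0.86 ± 0.15, adjusted p = 0.00292). Abca1 (chromosome 4, 53030787 to 53159895), which loads cholesterol on to new HDL, had an FPKM of 9.87, 8.83 and 9.91 in DDK livers 1 to 3, against 9.93, 18.3 and 20.6 in vehicle livers 1 to 3. Vehicle liver 1 stood at the level of the DDK livers, just above the highest of them, and vehicle livers 2 and 3 well above. Abca1 was called lower (log2 fold change -0.66 ± 0.23, adjusted p = 0.0446), but the call was lost without DDK liver 1 (adjusted p = 0.0884), DDK liver 2 (0.132), DDK liver 3 (0.0755), vehicle liver 2 (0.1299) or vehicle liver 3 (0.169). It was also lost with no filter on low genes (0.121), median ratios (0.165), quantile-normalized values (0.159) and length correction (0.113), and 8 of 17 alternatives kept it.

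Abcg5 (chromosome 17, 84658234 to 84683011) and Abcg8 (chromosome 17, 84676302 to 84700333) are neighbours read in opposite directions whose products join into the pump that secretes sterol into bile. Abcg5 had an FPKM of 111, 94.4 and 95.5 in the DDK livers and 56.7, 77.6 and 111 in the vehicle livers. Abcg8 had an FPKM of 43.1, 33.5 and 40.1 in the DDK livers and 35.2, 47.2 and 71.1 in the vehicle livers. For Abcg5, vehicle livers 1 and 2 lay below every DDK liver and vehicle liver 3 among them. For Abcg8, vehicle liver 1 lay among the DDK livers and vehicle livers 2 and 3 above them. Neither passed, with a log2 fold change of 0.34 ± 0.21 for Abcg5 (adjusted p = 0.217) and -0.34 ± 0.22 for Abcg8 (adjusted p = 0.248). Abcg5 passed as higher with median ratios (log2 fold change 0.65, adjusted p = 0.0258) and without vehicle liver 3 (0.0444), and Abcg8 as lower without vehicle liver 1 (0.0356). Their exons share 82 bp.

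The HDL receptor gene was lower, and the apolipoprotein E gene did not pass. Scarb1 (chromosome 5, 125277087 to 125341094), which encodes SR-B1, the HDL receptor of the liver, had an FPKM of 23.3, 23.98 and 28.7 in DDK livers 1 to 3, against 37.4, 59.9 and 69.1 in vehicle livers 1 to 3. The groups did not overlap although vehicle livers differed by nearly 2-fold among themselves. Scarb1 fell (log2 fold change -1.06 ± 0.21, adjusted p = 0.00466). Apoe, the apolipoprotein that returns remnants to the liver and an LXR target in macrophages, was by far the most abundant of the 38 genes, taking 3.65% to 4.05% of fragments in DDK livers and 2.904% to 4.44% in vehicle livers. It did not pass (log2 fold change 0.082 ± 0.21, adjusted p = 0.777), and the sign turned to -0.41 after quantile normalization (adjusted p = 0.0241).

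Of the lysosomal export genes, the soluble carrier fell and its membrane partner did not pass. Npc2 (chromosome 12, 84754562 to 84773152) takes up cholesterol freed in the lysosome and hands it to NPC1. Its FPKM was 18.2, 14.4 and 14.7 in DDK livers 1 to 3, against 32.6, 33.8 and 38.2 in vehicle livers 1 to 3. The groups lay far apart with little spread in either, and Npc2 fell (log2 fold change -1.10 ± 0.14, adjusted p = 0.000887). Npc1 (chromosome 18, 12189692 to 12236400) had 19.8 to 25.4 in DDK livers and 19.8 to 21.96 in vehicle livers and did not pass (log2 fold change 0.094 ± 0.13, adjusted p = 0.595), except as higher after length correction (log2 fold change 0.41, adjusted p = 0.0409). Its exons overlap 511 bp of Rmc1 on the other strand, which did not pass (log2 fold change -0.25).

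The ester cycle showed the same kind of split. Soat1 (chromosome 1, 156424525 to 156474331), the sterol acyltransferase of macrophages and most tissues, had an FPKM of 0.429, 0.2201 and 0.269 in DDK livers 1 to 3, against 1.02, 0.929 and 1.41 in vehicle livers 1 to 3, on 28 to 59 fragments in DDK livers and 152 to 230 in vehicle livers. It fell (log2 fold change -0.70 ± 0.13, adjusted p = 0.00397), and the fragment rate in DDK livers was 0.275 of that in vehicle livers (95% exact interval 0.225 to 0.334, counting error only). Soat1 entered the test through the vehicle livers alone, so its adjusted p is not independent of its being high there. Soat2 (chromosome 15, 102150526 to 102163469), the acyltransferase of hepatocytes and gut, stood at 21.6, 23.3 and 26.2 in the DDK livers and 22.2, 18.2 and 19.9 in the vehicle livers, above Soat1 in every liver, and did not pass (log2 fold change 0.23 ± 0.13, adjusted p = 0.192). It passed as higher with length correction (adjusted p = 0.0356), with median-ratio scaling (0.0295) and on quantile-normalized values (0.0418). Nceh1 (chromosome 3, 27182965 to 27284608), a hydrolase that frees cholesterol from esters in macrophages, ran from 7.62 to 9.37 in DDK livers and 13.9 to 14.4 in vehicle livers and fell (log2 fold change -0.68 ± 0.13, adjusted p = 0.0040005).

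Macrophage markers fell together with several of these genes. Abcg1, Npc2, Soat1 and Nceh1, which are known from macrophages, fell in the same livers in which Lyz2, lysozyme, stood at 53.9, 37.4 and 23.2 in the DDK livers and 193, 168 and 312 in the vehicle livers and Trem2, a lipid-sensing receptor, at 0.971, 0.394 and 0.404 in the DDK livers and 5.51, 6.74 and 9.198 in the vehicle livers. Clec4f, a defining Kupffer cell marker, ran from 15.7 to 43.6 in DDK livers and 29.2 to 41.3 in vehicle livers and did not pass (log2 fold change -0.35, adjusted p = 0.363). Abcg1, Npc2, Soat1 and Nceh1 are named here from among the members that fell. Apoe, an LXR target in macrophages, did not pass (log2 fold change 0.082, adjusted p = 0.777), nor did Npc1 (0.094, adjusted p = 0.595). How far macrophage content enters the values of Abcg1, Npc2, Soat1 and Nceh1 was not tested.

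Related genes were compared inside each liver, since a ratio of 2 genes depends little on how a library is scaled. Adding 1 to each FPKM shrinks the differences of low genes such as Soat1. A ratio also does not remove the trend with gene length where the 2 genes differ in length. Of 6 pairs, 4 had ratios that did not overlap between groups. For single genes, FPKM ranges did not overlap in 53.3% of all tested, and the share for ratios of other pairs was not computed. With 3 livers against 3 the smallest exact two-sided permutation p is 0.10, so no pair could pass 0.05. The log2 ratio of Npc1 to Npc2 was 0.11, 0.54 and 0.75 in DDK livers and -0.67, -0.60 and -0.91 in vehicle livers, a difference of 1.19 (exact permutation p = 0.10, 0.15 adjusted over the 6 pairs). Npc1 was thus above Npc2 in every DDK liver and below it in every vehicle liver. For Abcg5 over Abcg8 the log2 ratio was 1.35, 1.47 and 1.23 in DDK livers, against 0.67, 0.71 and 0.63 in vehicle livers, a difference of 0.68 (exact p = 0.10, adjusted 0.15). The vehicle ratios of this pair lay within 0.1 of each other although the genes themselves differed by about 2-fold between vehicle livers.

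Soat1 over Soat2 differed by -0.92 and Nr1h3 over Nr1h2 by -0.24, each without overlap (exact p = 0.10, adjusted 0.15). The ratio of Insig1 to Insig2 was 0.78, 0.56 and -0.36 in DDK livers and -0.047, -1.02 and -1.74 in vehicle livers, with overlap (difference 1.26, exact p = 0.20, adjusted 0.24). DDK liver 3 and vehicle liver 1 were the livers that crossed. Abca1 over Abcg1 differed by 0.20 (exact p = 0.60).

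**Figure D4:**
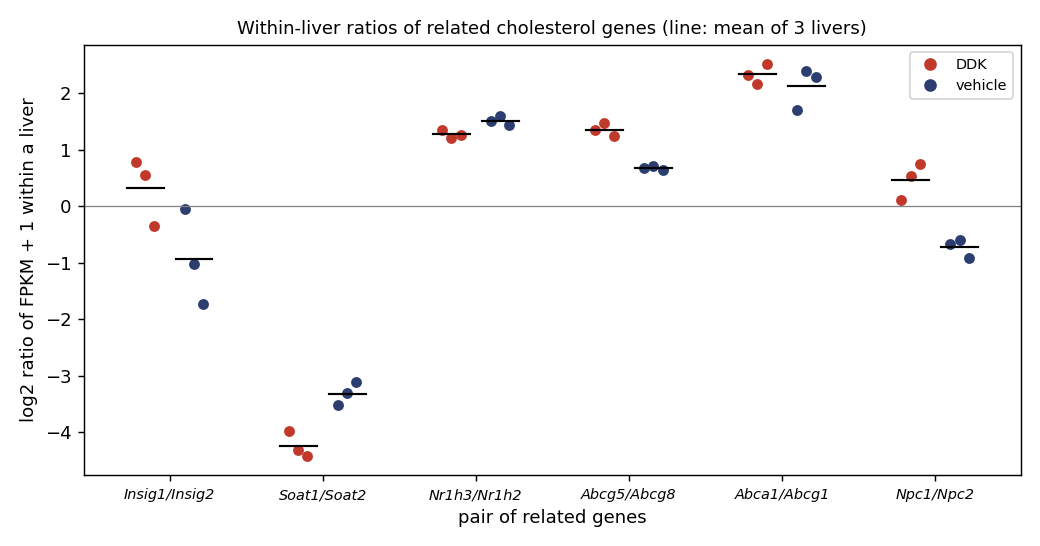
Log2 ratio of FPKM + 1 of 6 pairs of related cholesterol genes within each liver (points, replicates 1 to 3 from left to right, DDK left of vehicle) with the mean of 3 livers as a line. The Npc1/Npc2 ratios lie above 0 in the DDK livers and below 0 in the vehicle livers, and the Abcg5/Abcg8 ratios of the vehicle livers are nearly identical.

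Livers of a group also differed among themselves along this pathway. Among vehicle livers, liver 2 was the highest for 13 of the 23 synthesis-side genes and liver 3 the lowest for 13, while liver 3 was the highest for 9 of the 15 efflux-side genes and liver 1 the lowest for 7. Vehicle liver 3 thus had the lowest Insig1, Fdps, Cyp51 and Fdft1 and the highest Mylip, Abcg1, Abca1, Abcg5, Abcg8 and Scarb1 of its group. Among DDK livers, liver 3 was the highest for 13 synthesis-side genes, Srebf2, Insig2, Hmgcs1 and Sqle among them, and liver 2 the lowest for 11. Ranges of the groups did not overlap for 17 of the 38 genes, all of them lower in DDK. Over all genes tested the ranges did not overlap for 53.3%, with 39.2% lower in DDK and 14.1% higher.

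Of a further 44 genes of cholesterol handling 42 were tested, and 19 fell (45.2%) and 1 rose (2.38%), where 30.3% of all genes fell and 10.2% rose. Their median log2 fold change was -0.36, against -0.23 for all genes. Among 11 genes of SREBP processing and sterol sensing 6 fell and 1 rose. The lowest was Rnf145, an LXR-induced ligase that acts on SCAP, at 2.92, 3.16 and 3.94 in the DDK livers and 10.01, 9.53 and 10.6 in the vehicle livers (log2 fold change -1.36 ± 0.14, adjusted p = 0.000551). Srebf1, which encodes the lipogenic factor SREBP1 and is an LXR target, was at 36.1, 26.3 and 23.3 in the DDK livers and 67.4, 76.6 and 57.6 in the vehicle livers (log2 fold change -1.22 ± 0.18, adjusted p = 0.00154). Mbtps1, the protease that makes the first cut of SREBPs, had a log2 fold change of -0.73 (adjusted p = 0.00315). Aup1, a lipid droplet protein, was the gene that rose and was picked after its value was seen (0.46, adjusted p = 0.0238).

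The counts that follow are to be read against the 30.3% of all genes that fell and the 10.2% that rose. Among 9 measured genes of isoprenoid branches and other sterol enzymes 4 fell and 0 rose, led by the mitochondrial thiolase Acat1 (-0.83, adjusted p = 0.00184) and Pdss2 (-0.86), which makes the ubiquinone tail. Of 9 tested genes of intracellular sterol transport 4 fell and 0 rose. Lipa, the lysosomal acid lipase that frees cholesterol for NPC2, was at 50.99, 49.3 and 61.4 in the DDK livers and 98.9, 127 and 132 in the vehicle livers (log2 fold change -1.13 ± 0.15, adjusted p = 0.00117), and Scp2, sterol carrier protein 2, at 868, 834 and 877 in the DDK livers and 1387, 2099.8 and 1838 in the vehicle livers (log2 fold change -1.02 ± 0.17, adjusted p = 0.00258). Osbp, an oxysterol-binding exchanger, fell by 0.805 on the log2 scale. Of 7 tested uptake and lipoprotein partners 2 fell, Lrp1, a remnant receptor (-0.60, adjusted p = 0.0161), and Cyp27a1, the sterol 27-hydroxylase (-0.44, adjusted p = 0.0238), and 5 did not pass. That share of 28.6% is close to the 30.3% of all genes. Of 6 LXR partners 3 fell, among them Rxra, the partner receptor of LXR (-0.47, adjusted p = 0.0319), and Arl4c, an LXR target (-0.69, adjusted p = 0.00711).

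**Figure D5:**
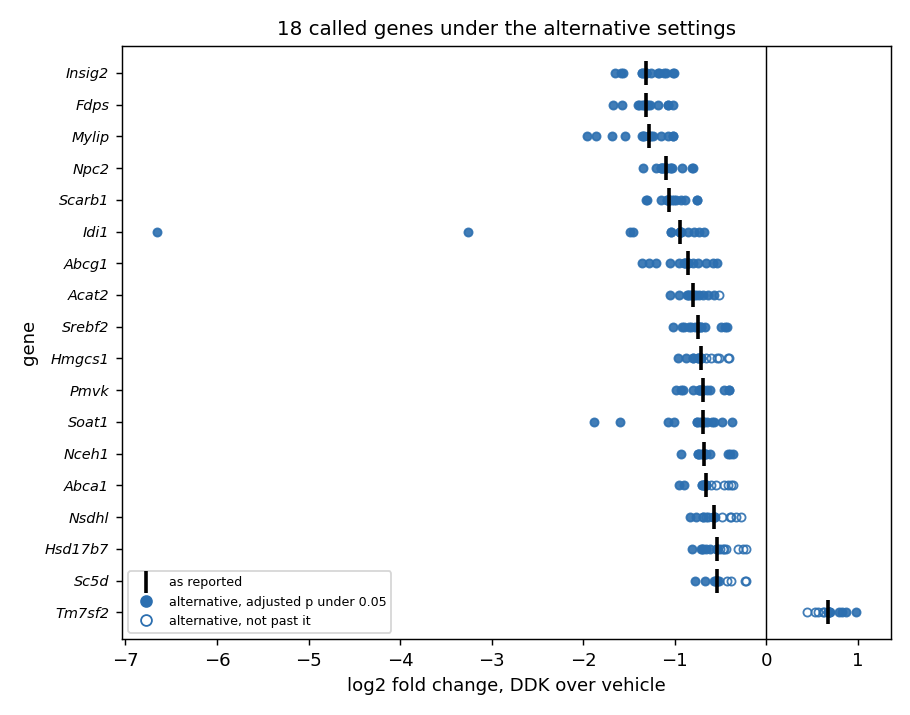
Log2 fold change of the 18 called cholesterol genes as reported (black bars) and under up to 17 alternative settings (circles, filled where the adjusted p stayed under 0.05). All circles of Insig2, Fdps, Mylip, Npc2 and Scarb1 lie below -0.7, those of Nsdhl, Hsd17b7, Sc5d and Abca1 are partly open, and the outlying values of Idi1 come from settings that add less to its near-zero DDK values.

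Over all genes tested 40.5% were called as reported, and the share that kept a call under every alternative was not computed. Among the cholesterol genes, calls that held under every alternative that could be fitted were those of 10 genes. These were Srebf2, Pmvk, Idi1, Fdps, Mylip, Abcg1, Scarb1, Npc2, Soat1 and Nceh1, of which Idi1 and Soat1 could not be tested at a filter of 1 FPKM. Both sides of cholesterol balance are represented among them, with 4 genes of synthesis and its control and 6 of efflux, uptake, lysosomal export and esters, or 3 and 5 without Idi1 and Soat1, which entered the test through the vehicle livers alone.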

How the data were processed

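The values used were FPKM that the authors deposited for 22173 gene symbols, 1 column for each of 6 liver libraries, made from 1.3 µg of total RNA with a kit that does not mark strand, per the labels' protocols. The genome build was GRCm38 (mm10) per the submitters' processing notes, and the aligner, counter and annotation are not given in the sources used here. FPKM are not counts. Solving for whole gene lengths and library totals gave whole fragments, within 0.01 of a fragment, for 100.00% of the 16573 genes above 0. Those fragments give the depths stated, and intervals from them cover counting error only.

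Genes with at least 0.5 FPKM in at least 3 libraries (10681) were tested on log2(FPKM + 1) with limma (version 3.58.1, R version 4.3.3), using a trend in the variance prior and Benjamini-Hochberg adjustment over all of them, at a threshold of 0.05. Fold changes are on that scale, which understates low genes. Errors are SE for fold changes and SD for FPKM. The labels do not say more of the 3 animals per group, so p-values measure the spread between these samples. The step was tested on simulated data in which few genes changed, equally up and down. That test does not cover a shift of most genes to one side, as on the deposited scale here. Genes named in full were those called with a log2 fold change beyond 0.8 and the regulators, receptors, pumps and acyltransferases. Pathway genes named were up to 3 per group with the smallest p. The overlapping genes and the 3 marker genes with values were picked after their values were seen. The members and lists were chosen with earlier results of these data known. Positions and exon overlaps are from GENCODE M21. For Tm7sf2 its exons cover 4403 bp, against 1479 bp solved from the FPKM, so shared bases may lie outside the gene models counted. The same holds for Fdps (4208 bp of exons, 1461 bp solved) and Npc1 (11317 and 5614 bp). For Fdft1 the solved length is the larger (4227 bp of exons, 8003 bp solved), so its overlap with Ctsb may differ from the one stated.

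Alternatives were pseudocounts of 0.1 and 0.5, no filter or a filter of 1 FPKM, median-ratio, quantile, TPM and length (lowess span 0.3) scaling, voom on the whole fragments, robust moderation, a replicate block and each library left out.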

Additional observations from a re-analysis of the deposited data

How the results depend on the processing

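The counts of 17 lower and 1 higher came out alike with either other pseudocount and with robust moderation, and as 16 and 1 with voom and 15 and 1 at a filter of 1 FPKM. Without a filter 11 fell and 0 rose, with median-ratio scaling 11 fell and 4 rose, after quantile normalization 13 and 2, after length correction 12 and 4, and after TPM rescaling 21 and 0. Leaving out 1 library gave 12 to 17 lower and 0 to 3 higher, and 2348 to 5686 of all genes called (2348 without DDK replicate 2, 2490 without vehicle replicate 3, 2796 without DDK replicate 1). The replicate block gave 17 lower and 1 higher (4134 of all genes) and changed no call, and same-numbered samples of the 2 groups had deviations correlated at 0.14, -0.15 and 0.056, so the numbers were not taken as pairs. At a filter of 1 FPKM Idi1, Soat1 and Sqle gave no value. Of 643 gene values under an alternative, 50 lost a call, 16 gained one with the same sign and 26 changed sign, of which Apoe on quantile-normalized values also gained a call (adjusted p = 0.0241), and the cause was not tested.

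Signs turned for genes that were not called as reported. After median-ratio scaling the log2 fold changes were 0.18 for Scap, 0.24 for Insig1, 0.070 for Mvk, 0.078 for Msmo1, 0.19 for Nr1h3 and 0.024 for Lpcat3. After quantile normalization they were 0.077 for Scap, 0.13 for Insig1, 0.12 for Mvk, 0.049 for Lss, 0.083 for Msmo1, 0.048 for Dhcr7 and -0.41 for Apoe. After length correction they were 0.20 for Scap, 0.18 for Insig1, 0.092 for Lss, 0.0082 for Msmo1, 0.055 for Dhcr7 and 0.070 for Nr1h3. After TPM rescaling they were -0.11 for Nr1h2, -0.16 for Apoe and -0.14 for Npc1. Insig1 stood at 0.11 without vehicle replicate 1 and 0.13 without vehicle replicate 2 (-0.40 without replicate 3), Apoe at -0.073 without vehicle replicate 2 (0.23 without replicate 1), and Npc1 at -0.0033 without DDK replicate 3 (0.17 without replicate 1).

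The Abca1/Abcg1 log ratio ran from -0.0086 (without vehicle replicate 1) to 0.34 when 1 library was left out, and the other 5 pairs kept their sign. The exact longer form of the sterol element was in 0% of the 19 synthesis-side promoters, against 5.26% for the core. With 3 livers a group, precision is limited for genes whose vehicle livers differed widely.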
